A study of Mus musculus with 6 samples.

Results

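The genes described here are the 68 axon guidance genes of the semaphorin, plexin, neuropilin, ephrin, Eph receptor, Slit, Robo and netrin families, with the netrin receptors, measured by RNA sequencing in cultured satellite cells of the mouse. Satellite cells lie along muscle fibres and serve as stem cells of the tissue. The guidance genes were picked from 27366 features in the expression table by a rule on gene names. That list was chosen with earlier results of these data known. They comprise 20 semaphorins, 2 neuropilins, 9 plexins, 8 ephrins, 12 Eph receptors, 3 Slits, 4 Robos, 4 netrins and 6 netrin receptors (Dcc, Neo1 and Unc5a to Unc5d). The 3 libraries labelled Islr knockout and the 3 labelled control all come from satellite cells at day 4 of growth culture, with 20% fetal bovine serum and basic FGF in the medium, and the series design describes a flow cytometry sort by Islr status. Islr is a secreted leucine-rich repeat protein. The making of the Islr allele, the cells in which it was deleted and the age of the mice stay unstated in the labels. No label ties the libraries to separate mice or separate cultures, so the tests below measure the spread between these libraries, which may be technical.

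Guidance genes encode ligands and receptors that steer growing axons, blood vessels and migrating cells. Secreted class 3 semaphorins bind neuropilins, which signal with plexins as partners, while most membrane-bound semaphorins bind plexins directly. Ephrins sit on one cell and Eph receptor kinases on its neighbour, with signals passing both ways. Slits bind Robo receptors, and netrins bind Dcc, neogenin (Neo1) and the Unc5 receptors. In skeletal muscle these families are known from the guidance of motor axons, from the migration of muscle precursors and, for Sema3a and neogenin, from regeneration and the formation of myotubes.

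The libraries held 16456917 to 20531276 assigned reads. A level is given below as scaled reads, the read count of a gene divided by the authors' size factor for that library, with the libraries of a group in the order of their replicate numbers 1, 2 and 3. Islr had 256.7, 7.4 and 10.9 scaled reads in the libraries labelled Islr knockout, against 181.1, 12.8 and 1579 in those labelled control. Of these, 2 libraries went against their labels. That labelled Islr knockout 1 had more Islr than those labelled control 1 and 2, and that labelled control 2 had about as little as those labelled Islr knockout 2 and 3. Every direction below is therefore one between labels. Pax7, the satellite cell transcription factor, was present in all 6 libraries, with 1558, 1667 and 1319 scaled reads in the libraries labelled Islr knockout, against 1233, 2729 and 1634 in those labelled control. Myog, which encodes the differentiation factor myogenin, had 37228, 1998 and 5737 scaled reads in the libraries labelled Islr knockout, against 43370, 417.2 and 43261 in those labelled control. Libraries with the same replicate number deviated together across genes, so each contrast was also fitted within replicate number, which is called the block below.

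Guidance transcripts covered a wide range of levels, and each family had at least 1 member with a mean above 1 FPKM (fragments scaled by transcript length and sequencing depth, as deposited). Over the 6 libraries 17 of the 68 genes had a mean of at least 10 FPKM, another 24 lay from 1 to 10 FPKM, and 27 lay under 1 FPKM. Reads were present in all 6 libraries for 63 genes. The receptor kinase Epha2 had the highest mean level, at 78.5 ± 10.2 FPKM in libraries labelled Islr knockout and 54.2 ± 27.5 FPKM in libraries labelled control (SD, n = 3 each). The plexin Plxnb2, a receptor for class 4 semaphorins, followed with 53.3 ± 15.7 FPKM in libraries labelled Islr knockout and 40.8 ± 6.47 FPKM in libraries labelled control. Unc5b, a repulsive netrin receptor also known from blood vessels, had 48.2 ± 13.2 FPKM in libraries labelled Islr knockout and 37.7 ± 23.7 FPKM in libraries labelled control. Sema7a, a semaphorin held in the membrane by a lipid anchor, had 53.8 ± 9.4 FPKM in libraries labelled Islr knockout and 31.9 ± 19.3 FPKM in libraries labelled control. The semaphorin receptor Plxna1 had 41.7 ± 2.6 FPKM in libraries labelled Islr knockout and 36.5 ± 19.7 FPKM in libraries labelled control. The ranges of these 5 genes over the 6 libraries overlap, so their order is not resolved.

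The genes named next had lower means over the 6 libraries, although the ranges of Ntn4, Efnb2, Nrp2 and Robo1 overlapped those of some genes above. Among ligands, the basement membrane netrin Ntn4 had 35.2 ± 4.05 FPKM in libraries labelled Islr knockout and 28.5 ± 4.06 FPKM in libraries labelled control, the transmembrane ephrin Efnb2 had 26 ± 2.74 FPKM in libraries labelled Islr knockout and 22.2 ± 9.22 FPKM in libraries labelled control, and Slit2 had 1.42 ± 1.14 FPKM in libraries labelled Islr knockout and 0.667 ± 0.452 FPKM in libraries labelled control. Among receptors, Nrp2 had 17.7 ± 2.49 FPKM in libraries labelled Islr knockout and 11.6 ± 4.66 FPKM in libraries labelled control, and Robo1 had 11.4 ± 5.65 FPKM in libraries labelled Islr knockout and 10.3 ± 4.63 FPKM in libraries labelled control. At the other end, Dcc, the attractive netrin receptor of commissural axons, had 2.5 scaled reads in the library labelled Islr knockout 3 and 0 in the other 5 libraries, and Epha8 had 2.2 in the library labelled control 1 and 0 in the other 5. The remaining 66 genes had a mean of at least 1 scaled read and were tested.

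**Figure D1:**
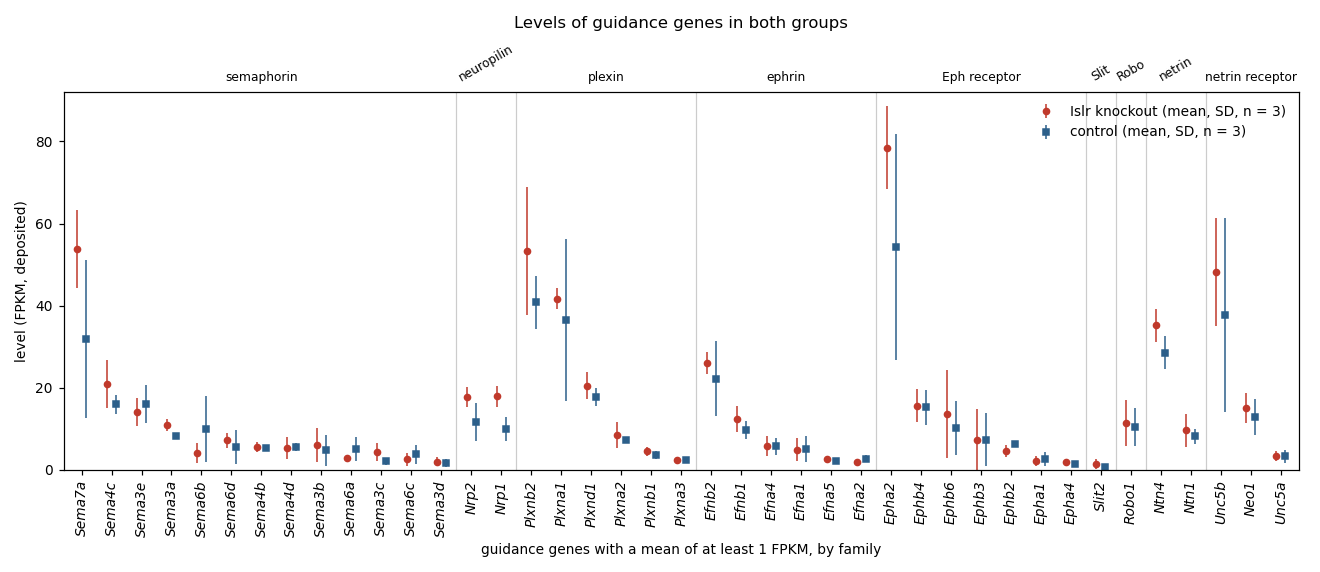
Level of each guidance gene with a mean of at least 1 FPKM, in deposited FPKM on a linear axis, with genes along the horizontal axis grouped by family. Points are group means and bars are SD over 3 libraries (red circles, libraries labelled Islr knockout; blue squares, libraries labelled control). Epha2, Plxnb2, Unc5b, Sema7a and Plxna1 have the highest means over the 6 libraries, and the bars of both groups overlap for most genes.

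Between the labelled genotypes, no guidance gene passed an adjusted p under 0.05 (limma with Benjamini-Hochberg adjustment over 20344 genes), and no other gene did. Without the adjustment 276 of all genes tested (1.36%; 1.15% higher and 0.211% lower) had a limma p under 0.05, beside 304 with edgeR (1.49%) and 316 with DESeq2 (1.55%). Of the 66 guidance genes 2 had one with limma and with edgeR (3.03%), Nrp1 and Sema3c, both higher in the libraries labelled Islr knockout, and 4 with DESeq2. With the block 11 of 66 (16.7%) had an unadjusted limma p under 0.05, beside 4.59% of all genes, 9 of them higher (3.66% of all genes) and 2 lower (0.924%). The blocked count was the same with edgeR (beside 4.12% of all genes) and 8 with DESeq2 (beside 3.5%). DESeq2 with the block called 7 genes past the adjusted threshold (0.0344%), none of them a guidance gene. For all 11 genes the blocked limma adjusted p was 0.92, and over all alternatives the adjusted p of these genes ran from 0.151 to 1.0.

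Taken by direction, 45 of 66 guidance genes (68.2%) had a log2 fold change above 0, beside 53% of all genes, and the median was 0.25, beside 0.03 over all genes tested. These fold changes are on the log2(scaled reads + 1) scale, libraries labelled Islr knockout over those labelled control, and understate changes of genes with few reads. Within each of the 3 replicate numbers 18 genes were higher (27.3%, beside 12.2% of all genes) and 6 lower (9.09%, beside 12.1%), while 42 kept no single sign. The median difference was 0.18, 0.03 and 0.55 within numbers 1, 2 and 3, so it was largest in number 3. That pair also differed most in Myog, with log2 differences of -0.22, 2.26 and -2.91 within numbers 1, 2 and 3. The part of differentiation in the genotype differences was not tested. The library labelled control 3 held the lowest level of the 6 for 19 guidance genes (28.8%), beside 19.1% of all genes. Without number 3 the blocked count was 3 genes (4.55%, beside 1.95% of all genes) and the median 0.07. With no block, leaving out Islr knockout 1 gave 12 genes (18.2%, beside 4.12% of all genes) with an unadjusted limma p under 0.05. Leaving out control 2 gave 7 (10.6%, beside 2.53%). Leaving out Islr knockout 2 or 3 gave 1 and 0, and control 1 or 3 gave 2 and 3. The Islr level of Islr knockout 1 and control 2 went against their labels, and their Myog also stood apart. Islr knockout 1 held 37228 scaled reads of Myog, against 1998 and 5737 in the others of its label. Control 2 held 417.2, against 43370 and 43261. Whether either feature accounts for the higher counts was not tested. Summed over all guidance genes, the level came to 58583, 58422 and 59944 scaled reads in the libraries labelled Islr knockout, against 47233, 64254 and 40130 in those labelled control, and the groups overlapped. In bulk samples like these, fewer cells of a type and less RNA per cell cannot be told apart.

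**Figure D2:**
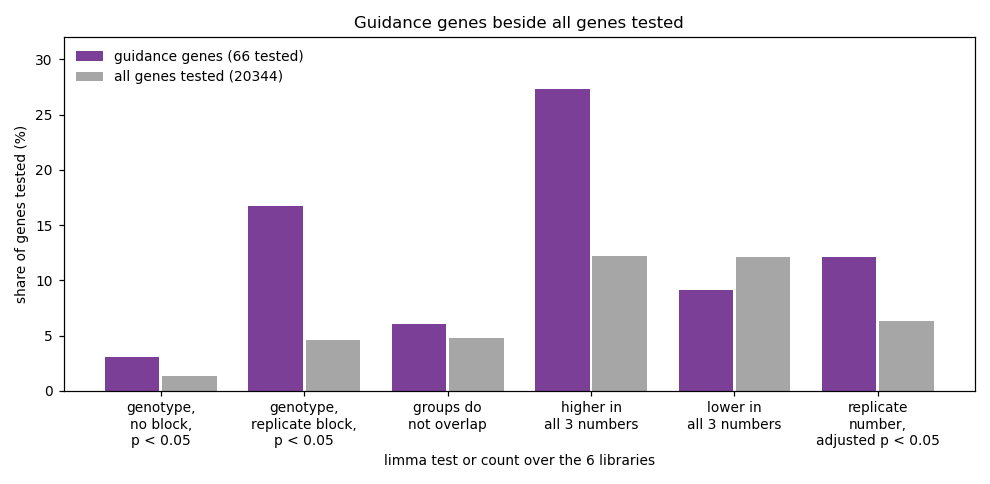
Share of the 66 tested guidance genes (purple) and of all 20344 genes tested (grey), in percent on an axis from 0, that met each criterion named under the bars; genotype and replicate number tests are limma fits. The shares are 16.7% and 4.59% for an unadjusted p under 0.05 with the block, and 27.3% and 12.2% for genes higher in all 3 replicate numbers.

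Markers of other cell types also stood higher in some of the libraries labelled Islr knockout. The 16 endothelial markers summed to 975, 3244 and 2782 scaled reads in the libraries labelled Islr knockout, against 1103, 1516 and 1452 in those labelled control, with 14 of 16 fold changes above 0. Robo4 is both a guidance gene and 1 of these 16 markers. The 14 fibroblast markers summed to 8574, 13103 and 17283 scaled reads in the libraries labelled Islr knockout, against 10003, 6891 and 16996 in those labelled control, with 12 of 14 above 0. The 12 Schwann cell markers summed to 3207, 2020 and 2000 in the libraries labelled Islr knockout, against 2430, 882 and 1515 in those labelled control, with 9 of 11 tested above 0. The 14 macrophage and immune markers summed to 116, 527 and 990 in the libraries labelled Islr knockout, against 217, 177 and 369 in those labelled control, and the 8 pericyte markers to 5899, 4782 and 3815 in the libraries labelled Islr knockout, against 4214, 3221 and 4868 in those labelled control. The 20 muscle differentiation markers summed to 675891, 27219 and 78598 in the libraries labelled Islr knockout, against 649234, 11264 and 353167 in those labelled control. They kept no single direction, with 9 of 20 fold changes above 0 and median log2 differences of -0.13, 2.13 and -2.12 within numbers 1, 2 and 3. The 10 satellite cell markers summed to 131129, 59854 and 67425 in the libraries labelled Islr knockout, against 138934, 69303 and 100125 in those labelled control, with 2 of 10 above 0. This list includes Myod1 and Des. In the library labelled Islr knockout 1, Pax7 gave only 1558 of the 131129 and Myod1 gave 20943. The library labelled control 2 had the most Pax7 (2729) but a sum of 69303, so the sum does not follow Pax7. No marker was at 0 in all 6 libraries, and the part of such cells in the differences below was not tested.

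Among the ligands, the semaphorins were divided, with 11 of 20 fold changes above 0 and 9 below (13 and 7 when scaled by library totals) and a median log2 fold change of 0.34. Sema3c (ENSMUSG00000028780, chr5:17574281-17730268 on GRCm38), a secreted semaphorin known from the guidance of neural crest cells and from the cardiac outflow tract, had 318.3, 300.8 and 627.7 scaled reads in the libraries labelled Islr knockout, against 214.4, 115.4 and 272.7 in those labelled control. All 3 libraries labelled Islr knockout stood above all 3 labelled control. Its log2 fold change was 1.05 ± 0.43 (95% interval 0.07 to 2.02) in the limma fit without the block and had an SE of 0.26 with it. Leaving out the library labelled control 2 gave 0.69. Sema7a (ENSMUSG00000038264, chr9:57940112-57962865), known in axon outgrowth and in immune cells through integrin binding, had 3156, 3888 and 2564 scaled reads in the libraries labelled Islr knockout, against 2733, 2690 and 561.7 in those labelled control. The library labelled control 3 stood far below the other 5. The log2 fold change was 0.98 ± 0.36 with the block (95% interval 0.14 to 1.81), and 0.22 without the library labelled control 3 in the fit without the block. Sema3a, the secreted repellent that acts through Nrp1, had 1169, 1043 and 1260 scaled reads in the libraries labelled Islr knockout, against 858.8, 1016 and 832.7 in those labelled control. Its groups did not overlap, though the libraries numbered 2 lay close together, and the log2 fold change was 0.36 ± 0.23 (95% interval -0.16 to 0.88).

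Of the membrane-bound semaphorins, Sema5a, which carries thrombospondin repeats, had 100.4, 179.9 and 180.8 scaled reads in the libraries labelled Islr knockout, against 58.9, 145.7 and 87.8 in those labelled control. It was higher in the library labelled Islr knockout within each replicate number, with a log2 fold change of 0.70 ± 0.30 with the block (95% interval 0.01 to 1.39). Leaving out the library labelled control 1 gave 0.39. Sema6b, of class 6, ran the other way, with 463.2, 112.6 and 252.8 scaled reads in the libraries labelled Islr knockout, against 674.4, 149.2 and 1182 in those labelled control. It was lower in the library labelled Islr knockout within each number, with log2 differences of -0.54, -0.40 and -2.22 in numbers 1, 2 and 3. Its fitted value was -1.06 ± 0.36 with the block (95% interval -1.88 to -0.24), and over the alternatives it ran from -1.91, without the library labelled control 2, to -0.42, without that labelled control 3. Sema4a, of class 4 and known from immune cells, had 10.3, 12.9 and 9.2 scaled reads in the libraries labelled Islr knockout, against 25.6, 17.5 and 22.2 in those labelled control. Its groups did not overlap at these few reads, with a log2 fold change of -0.94 ± 0.55 (95% interval -2.19 to 0.30). In all, 4 of the 66 guidance genes had groups that did not overlap (6.06%, beside 4.76% of all genes), namely Nrp1, Sema3a and Sema3c, which were higher (2.65% of all genes), and Sema4a, which was lower (2.11%).

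Both neuropilins, the ligand-binding receptors for class 3 semaphorins, had positive fold changes. Nrp1 (ENSMUSG00000025810, chr8:128358604-128503363), which is also a coreceptor for VEGF, had 1101, 1126 and 1277 scaled reads in the libraries labelled Islr knockout, against 705.5, 899.6 and 437.2 in those labelled control. The lowest library labelled Islr knockout lay above the highest labelled control. Its log2 fold change was 0.84 ± 0.30 (95% interval 0.15 to 1.52) in the limma fit without the block, and 0.64, 0.32 and 1.54 within numbers 1, 2 and 3. Without the library labelled control 3 it was 0.55. Over the alternatives it ran from 0.48, with the block and number 3 left out, to 1.09, with the block and number 2 left out. With no block, its unadjusted limma p was 0.051, 0.0666 and 0.0746 without the libraries labelled Islr knockout 2, Islr knockout 3 and control 3. It stayed under 0.05 when any of the others was left out. Nrp2, which prefers other class 3 semaphorins, had 1911, 2188 and 2279 scaled reads in the libraries labelled Islr knockout, against 1580, 2067 and 770.5 in those labelled control. It was higher within each replicate number, and its log2 fold change was 0.64 ± 0.29 with the block (95% interval -0.02 to 1.30). Endothelial cells also express neuropilins, and the endothelial marker sums given above were 975, 3244 and 2782 scaled reads in the libraries labelled Islr knockout, against 1103, 1516 and 1452 in those labelled control. Their part in the neuropilin values was not tested.

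Of the 9 plexins, the signalling receptors for semaphorins, 8 had a fold change above 0, with a median of 0.24. Plxna4, a receptor for class 3 and class 6 semaphorins, had 77.6, 150.4 and 99.6 scaled reads in the libraries labelled Islr knockout, against 50, 79.2 and 27.3 in those labelled control. It was higher within each replicate number, and the log2 fold change was 1.12 ± 0.37 with the block (95% interval 0.28 to 1.97). Without the library labelled control 3 it was 0.73 in the fit without the block. The abundant plexins differed less. Plxna1 had 7569, 6560 and 6228 scaled reads in the libraries labelled Islr knockout, against 4643, 10445 and 3632 in those labelled control, so that the libraries labelled control lay on both sides of the others. Of the exon bases of Plxna1, 10.7% overlap an annotated antisense gene, and with strand handling unstated the reads of the pair cannot be told apart. Plxnb2 had a log2 fold change of 0.31 ± 0.19 with the block (95% interval -0.11 to 0.73), and Plxnd1, the receptor of Sema3e in vessels, one of 0.14 ± 0.18 with the block (95% interval -0.27 to 0.56).

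The median log2 fold change was 0.89 over the 3 Slits and 0.68 over the 4 Robos, beside 0.74 over the neuropilins. Robo3 and Robo4, with means of only 11.2 and 12.1 scaled reads, lay above the Robo median. Robo1, with a mean of 1481, and Robo2, with 19.2, lay below it at 0.11 and -0.33. Slit2, a secreted repellent cleaved into active fragments, had 86.7, 203.9 and 451.1 scaled reads in the libraries labelled Islr knockout, against 71.1, 83.9 and 207.1 in those labelled control. It was higher within each number, with a log2 fold change of 0.89 ± 0.31 with the block (95% interval 0.20 to 1.59). Over the alternatives it ran from 0.31, when the library labelled Islr knockout 3 was left out, to 1.49, when that labelled Islr knockout 1 was. Slit3 had 44.5, 163.3 and 149.8 scaled reads in the libraries labelled Islr knockout, against 47.8, 66.4 and 45.2 in those labelled control. The library labelled Islr knockout 1 lay at the level of the libraries labelled control, and the other 2 lay above all of them. Its log2 fold change was 0.96 ± 0.42 with the block (95% interval 0.02 to 1.91), and over the alternatives it ran from 0.59, with the block and number 3 left out, to 1.56, when the library labelled Islr knockout 1 was left out. Robo3, the divergent Robo of commissural axons that in mammals binds Slits weakly, had 1.1, 24.9 and 32.6 scaled reads in the libraries labelled Islr knockout, against 1.1, 0.0 and 7.7 in those labelled control. This is a difference of few reads, with a log2 fold change of 2.22 ± 0.88 with the block (95% interval 0.21 to 4.24), and over the alternatives it ran from 0.99, with the block and number 2 left out, to 3.49, when the library labelled Islr knockout 1 was left out. Robo1, the most abundant Robo, had 1099, 1180 and 2279 scaled reads in the libraries labelled Islr knockout, against 711.0, 1811 and 1807 in those labelled control. The groups overlapped, with a log2 fold change of 0.11 ± 0.26 with the block (95% interval -0.47 to 0.70). Robo4, a receptor of endothelial cells, had 6.8, 24.9 and 21.8 scaled reads in the libraries labelled Islr knockout, against 4.4, 9.3 and 5.1 in those labelled control.

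The ephrins and Eph receptors showed no shared direction, with 4 of 8 ephrins and 6 of the 11 tested Eph receptors above 0 (5 of 11 with edgeR and with DESeq2) and medians of 0.04 and 0.02. Efna3, a lipid-anchored ephrin, had 17.1, 29.5 and 41.8 scaled reads in the libraries labelled Islr knockout, against 10, 3.5 and 19.6 in those labelled control. It was higher within each replicate number, with a log2 fold change of 1.51 ± 0.56 with the block (95% interval 0.23 to 2.79), and of 0.89 with the block when number 2 was left out. An annotated antisense gene overlaps 14.1% of its exon bases. Ephb2, a receptor kinase for transmembrane ephrins, had 1282, 842.3 and 581.7 scaled reads in the libraries labelled Islr knockout, against 1322, 1190 and 1215 in those labelled control. The libraries labelled control lay close together, and those labelled Islr knockout spread from their level downwards. Its log2 fold change was -0.53 ± 0.23 with the block (95% interval -1.06 to -0.00), and over the alternatives it ran from -0.82, when the library labelled Islr knockout 1 was left out, to -0.26, when that labelled Islr knockout 3 was. Efnb2, known from arteries and from sorting at tissue borders, had 2622, 2178 and 1943 scaled reads in the libraries labelled Islr knockout, against 2145, 2859 and 1031 in those labelled control. Epha2 had 4905, 5971 and 5636 scaled reads in the libraries labelled Islr knockout, against 4497, 5912 and 1627 in those labelled control. In both genes the library labelled control 3 was the lowest, and the log2 fold changes were 0.27 ± 0.26 with the block (95% interval -0.31 to 0.85) for Efnb2 and 0.64 ± 0.34 with the block (95% interval -0.14 to 1.43) for Epha2.

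Over the 4 netrins the median log2 fold change was 0.20. Ntn4, which binds laminins, had 2201, 2254 and 2445 scaled reads in the libraries labelled Islr knockout, against 1923, 2327 and 1566 in those labelled control. The groups overlapped, and the log2 fold change was 0.26 ± 0.20 with the block (95% interval -0.20 to 0.73). Ntn1, the founding axon attractant, had 1563, 729.8 and 765.0 scaled reads in the libraries labelled Islr knockout, against 1071, 983.5 and 631.5 in those labelled control, with its highest level in the library labelled Islr knockout 1. All 5 tested netrin receptors had a limma fold change above 0 with each of the 3 scalings, and 4 of 5 did with edgeR and with DESeq2. The median was 0.52. Neo1 encodes neogenin, which is known to promote myotube formation, and had 1675, 1869 and 2379 scaled reads in the libraries labelled Islr knockout, against 1198, 2497 and 1599 in those labelled control. Unc5b had 5258, 6635 and 3484 scaled reads in the libraries labelled Islr knockout, against 4241, 6992 and 1393 in those labelled control. Neither separated the groups, with log2 fold changes of 0.21 ± 0.24 with the block (95% interval -0.32 to 0.75) for Neo1 and 0.52 ± 0.27 with the block (95% interval -0.09 to 1.13) for Unc5b.

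**Figure D3:**
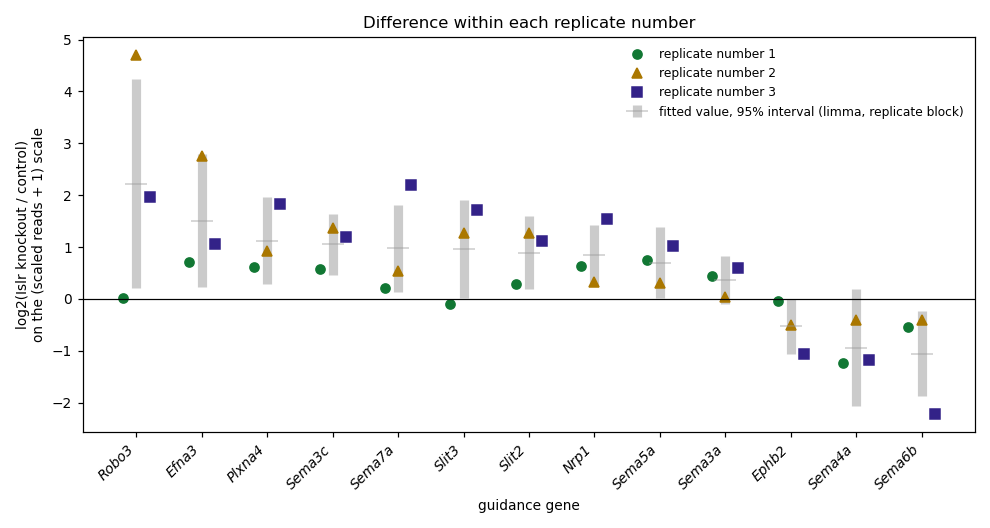
Difference between libraries labelled Islr knockout and libraries labelled control within replicate number 1 (green circles), 2 (ochre triangles) and 3 (blue squares), as log2 ratio on the (scaled reads + 1) scale, for the 13 guidance genes with an unadjusted limma p under 0.05 or with groups that do not overlap. Grey bars are 95% intervals of the limma fit with the block. Number 3 gives the largest difference for Plxna4, Sema7a, Slit3, Nrp1, Sema5a, Sema3a, Ephb2 and Sema6b. Number 2 does so for Robo3, Efna3, Sema3c and Slit2, and number 1 for Sema4a.

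Between replicate numbers, 8 of 66 guidance genes passed an adjusted p under 0.05 (12.1%), beside 1291 of all genes tested (6.35%; limma F test with Benjamini-Hochberg adjustment). Without the adjustment 24 did (36.4%, beside 27% of all genes). edgeR called 12 guidance genes (beside 7.54% of all genes) and DESeq2 15 (beside 13.2%). With the trend and robust options of limma switched off, 0 genes passed, while 4237 had an unadjusted p under 0.05. The smallest limma adjusted p, 0.00584, belonged to Ephb3 (ENSMUSG00000005958, chr16:21204755-21223305), a receptor kinase for transmembrane ephrins known from the intestine and the nervous system. Ephb3 had 1411, 136.5 and 334.8 scaled reads in the libraries labelled Islr knockout, against 1223, 85.1 and 593.2 in those labelled control. The libraries numbered 1 were high and those numbered 2 low in both groups, and the log2 fold change between the labels was 0.02. Sema3b, a secreted semaphorin, had 670.8, 127.3 and 318.9 scaled reads in the libraries labelled Islr knockout, against 455.5, 28.0 and 400.6 in those labelled control (limma adjusted p = 0.0258). Sema3d, known from heart and vessel patterning, had 305.8, 70.1 and 265.3 scaled reads in the libraries labelled Islr knockout, against 203.3, 96.7 and 300.9 in those labelled control (limma adjusted p = 0.0382). Sema6b, whose values are given above, passed at a limma adjusted p of 0.0383. In these 4 genes both libraries numbered 2 lay below the other 4 libraries. The same libraries held the least Myog, 1998 scaled reads in that labelled Islr knockout 2 and 417.2 in that labelled control 2, and the part of differentiation in these differences was not tested.

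The other 4 genes were not lowest in number 2. Ephb6, an Eph receptor without kinase activity, had 227.0, 890.3 and 1568 scaled reads in the libraries labelled Islr knockout, against 301.1, 645.6 and 1142 in those labelled control (limma adjusted p = 0.0102). It was lowest in number 1 and highest in number 3 in both groups. Epha1, an Eph receptor known from epithelia, had 45.6, 149.5 and 163.2 scaled reads in the libraries labelled Islr knockout, against 42.2, 257.5 and 170.5 in those labelled control (limma adjusted p = 0.0271), and both libraries numbered 1 lay below the rest. The antisense gene Zyx overlaps 6.01% of its exon bases. Slit2 passed at a limma adjusted p of 0.0413 and Unc5b at 0.0459, Slit2 being highest and Unc5b lowest in number 3 within each labelled group. Leaving out the library labelled Islr knockout 1 left 1 guidance gene called, Ephb3 (beside 1.44% of all genes), while 12 were called without that labelled Islr knockout 2 (beside 12.2%) and 7 without that labelled Islr knockout 3 (beside 2.67%). Leaving out any 1 library labelled control left 2, beside 2.57%, 2.09% and 1.91% of all genes without control 1, 2 and 3. Ephb3 passed in 17 of 18 alternative settings and Unc5b in 7 of 18.

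**Figure D4:**
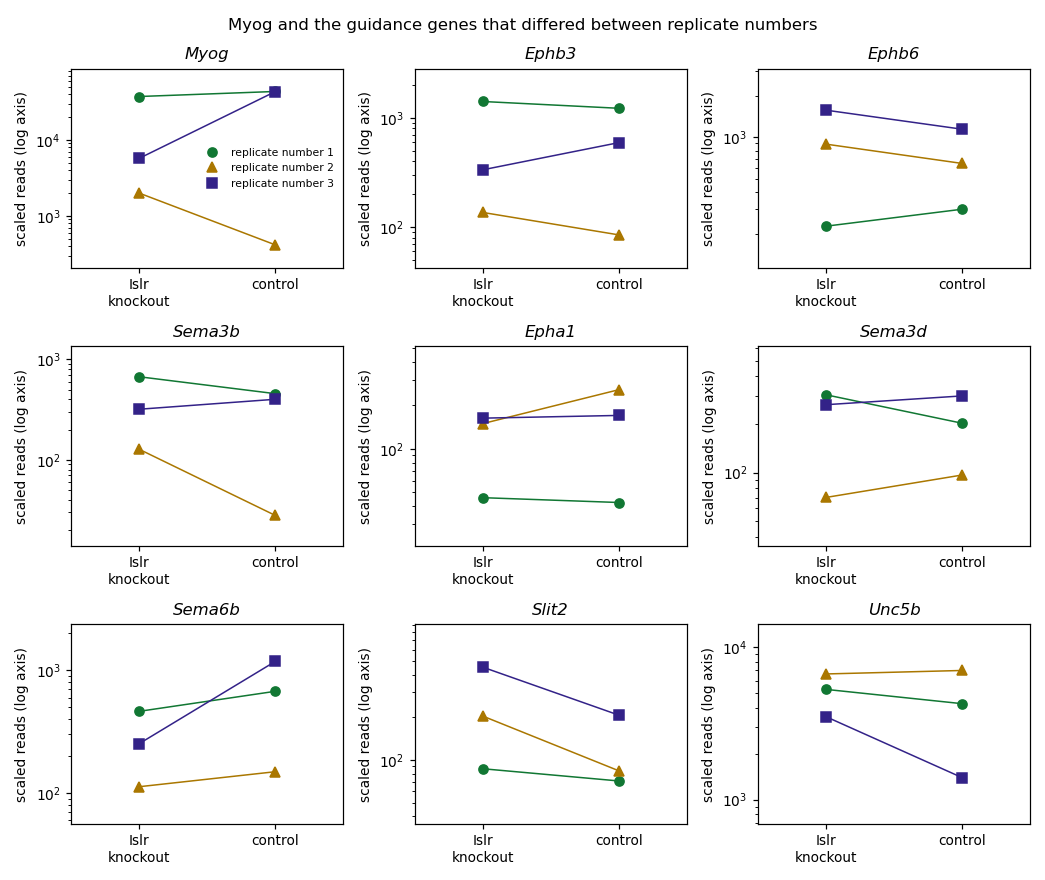
Scaled reads on log axes for Myog and for the 8 guidance genes that differed between replicate numbers; each line joins the library labelled Islr knockout (left) and the library labelled control (right) of 1 replicate number. Ephb3, Sema3b, Sema3d and Sema6b are lowest in number 2 in both groups, and Ephb6 and Epha1 are lowest in number 1.

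The sequences before the start sites of 4 of these genes are shown because they have the smallest p between the labels (Nrp1 and Sema3c), the smallest adjusted p between replicate numbers (Ephb3) and the highest level among semaphorins (Sema7a). Each is the 250 bases before the annotated start, from RefSeq on GRCm38.p6, 5′ to 3′, with every E-box of the letters CANNTG in capitals. The RefSeq starts of Nrp1, Sema3c and Ephb3 lie inside the longer gene models of GENCODE. The windows of Nrp1 and Sema3c lie wholly within those models, and that of Ephb3 spans the start of its model. The motif reads the same on both strands. Myogenin and MyoD belong to the helix-loop-helix factors that bind E-boxes, often of the letters CAGCTG.
Nrp1 (chr8:128358823-128359072, plus strand): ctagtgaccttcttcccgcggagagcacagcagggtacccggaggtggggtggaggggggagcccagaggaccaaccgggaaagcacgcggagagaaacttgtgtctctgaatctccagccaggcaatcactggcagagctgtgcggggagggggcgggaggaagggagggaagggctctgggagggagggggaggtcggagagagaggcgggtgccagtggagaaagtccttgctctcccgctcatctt
Sema3c (chr5:17574566-17574815, plus strand): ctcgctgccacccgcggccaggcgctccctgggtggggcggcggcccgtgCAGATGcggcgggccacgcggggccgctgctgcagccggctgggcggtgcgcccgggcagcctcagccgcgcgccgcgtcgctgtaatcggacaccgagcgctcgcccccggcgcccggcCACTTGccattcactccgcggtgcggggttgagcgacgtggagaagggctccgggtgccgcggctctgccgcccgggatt
Ephb3 (chr16:21204545-21204794, plus strand): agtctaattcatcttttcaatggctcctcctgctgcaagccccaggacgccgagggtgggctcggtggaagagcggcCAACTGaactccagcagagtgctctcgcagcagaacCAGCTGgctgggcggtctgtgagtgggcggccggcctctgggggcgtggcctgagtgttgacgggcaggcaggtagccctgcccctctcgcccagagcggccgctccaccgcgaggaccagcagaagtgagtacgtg
Sema7a (chr9:57939862-57940111, plus strand): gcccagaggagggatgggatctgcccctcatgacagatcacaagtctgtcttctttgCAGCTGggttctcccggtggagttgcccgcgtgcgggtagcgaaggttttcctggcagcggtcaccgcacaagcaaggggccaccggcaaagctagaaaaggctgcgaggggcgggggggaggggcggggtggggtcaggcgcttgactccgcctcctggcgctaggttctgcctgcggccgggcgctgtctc
The Nrp1 window holds no E-box, that of Sema3c holds 2, that of Ephb3 holds 2, of which 1 is CAGCTG, and that of Sema7a holds 1, which is CAGCTG. Of 74 windows for the 58 guidance genes with a RefSeq entry, 45.9% held CANNTG, beside 66.2% of all 32851 windows, and 13.5% held CAGCTG, beside 13% of all windows. Another motif, the AP-1 site TGANTCA, which also reads the same on both strands, was in 4.05% of the guidance gene windows and 6.75% of all. A match describes letters and is not evidence of binding.

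Among 76 partner genes of these pathways (such as adhesion coreceptors, signalling proteins and cytoskeletal effectors), 75 were tested, 57 had a fold change above 0 and 18 below, beside 53% of all genes above 0, and the median log2 fold change was 0.16, beside 0.03. With limma 0 had an unadjusted p under 0.05 between the labels (beside 1.36% of all genes), and 1 did with edgeR and with DESeq2. With the block 5 of 75 did, beside 4.59% of all genes. All 5 were higher (beside 3.66%), namely Nrcam, L1cam, Chl1, Lrig1 and Ablim1, the last named after its value was seen. Nrcam, an adhesion molecule that joins neuropilins in semaphorin receptors, had 247.6, 602.4 and 2462 scaled reads in the libraries labelled Islr knockout, against 212.2, 142.2 and 273.6 in those labelled control. The library labelled Islr knockout 3 stood far above the rest, and the log2 fold change was 1.82 ± 0.52 with the block (95% interval 0.56 to 3.08). L1cam, the Nrp1 partner for Sema3a, had 67.3, 204.8 and 133.9 scaled reads in the libraries labelled Islr knockout, against 41.1, 97.9 and 50.3 in those labelled control. Its close homologue Chl1 had 11.4, 55.4 and 15.1 scaled reads in the libraries labelled Islr knockout, against 4.4, 15.1 and 4.3 in those labelled control. Both were higher within each replicate number, with log2 differences of 0.70, 1.06 and 1.40 for L1cam and 1.19, 1.80 and 1.61 for Chl1 in numbers 1, 2 and 3. Schwann cells also express these 3 adhesion genes, and the Schwann cell marker sums given above were 3207, 2020 and 2000 scaled reads in the libraries labelled Islr knockout, against 2430, 882 and 1515 in those labelled control. Their part in these values was not tested. Lrig1, an inhibitor of receptor tyrosine kinases, had 1439, 1351 and 2184 scaled reads in the libraries labelled Islr knockout, against 1031, 1205 and 1336 in those labelled control, and its groups did not overlap.

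In the authors' deposited table of the same comparison, 5 guidance genes had an unadjusted p under 0.05, all with an adjusted p of 0.9998, namely Sema3c, Slit3, Nrp1, Plxna4 and Robo3. The share over all genes of that table was not counted, so this count is no result about guidance genes. The authors' deposited table of GO terms lists negative regulation of axon extension in axon guidance with 25 annotated genes, of which 4 were in their list, Nrp1 and Sema3c among them, where 0.32 were expected (adjusted p = 0.0242). The authors' deposited table also lists the term for Roundabout signalling with 6 annotated genes, of which 2 were in their list, Robo3 and Slit3, where 0.08 were expected (adjusted p = 0.0722). Of their terms on axon guidance, semaphorin receptors or Roundabout signalling, only the first had an adjusted p under 0.05. The others ran from 0.0722 to 0.19. The guidance genes in their list are the same 5 with an unadjusted p under 0.05. Both tables rest on the same 6 libraries and are not a separate measurement.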

How the data were processed

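Per the file headers, the authors deposited scaled expression values on a signal scale (the count of each gene divided by 1 size factor per library), FPKM, and the log2 fold change and p-value of their own comparison. They also deposited raw counts for part of the genes and a list of GO terms with annotated, listed and expected gene numbers. Tools named in the submitters' processing notes are HISAT2 2.0.5, Trimmomatic, HTSeq, edgeR 3.18.1 and DESeq2 1.16.1, without their roles. Build, annotation and strand setting: not given in the sources used here. All 68 guidance genes had the coordinates of GENCODE M21 on GRCm38.

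Broken lines (36) were dropped. Whole reads were recovered from the steps of the scaled values (100.0% whole within 0.01), and all 480 genes present in both tables matched the raw counts. One column name differs from the label of control 1 by 2 exchanged digits, and the other 5 equal their labels. A further 6 per-sample columns stayed unused.

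Since the values are scaled, limma 3.58.1 (R 4.3.3, trend and robust) was run on log2(scaled reads + 1) for 20344 genes whose mean was 1 or more. Tests were two-sided with Benjamini-Hochberg adjustment over all genes. Alternatives were edgeR 4.0.16 (quasi-likelihood) and DESeq2 1.42.0 on the recovered reads, the replicate block, other scalings, pseudocounts and filters, and each library left out. The scripts were tested on simulated data. To check the pairing, each library was centred on its group mean over 14280 genes with a mean of 10 or more: libraries with equal numbers correlated at 0.689, 0.633 and 0.625, others at -0.513 to -0.245. The numbers were therefore taken as pairs, on the data's evidence and not on the labels' word.

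The guidance genes, partner genes and marker lists were chosen with earlier results of these data known. By rule, values in every library are given for guidance genes with an unadjusted limma p under 0.05 for genotype, with groups that do not overlap or past the replicate number test, for the highest member of each family by scaled reads and for the 6 partner genes with the smallest p, of which 2 are not reported here. Robo4, Ntn1 and Neo1 were added for their roles after their values were seen.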

Additional observations from a re-analysis of the deposited data

How the results depend on the processing

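No guidance gene passed the adjusted genotype test under any of 21 alternatives. The log2 fold changes of the 13 guidance genes named for genotype kept their sign in all of them. These 13 were picked from the same 6 libraries by small p or non-overlap, which largely fixes the sign, so this is no separate check. DESeq2 with the replicate block called 7 genes of all tested, and the limma block without replicate 1 called 93. The number of guidance genes with an unadjusted p under 0.05 was 2 of 66 (3.03%, beside 1.36% of all genes). It was 11 with the limma or edgeR replicate block (beside 4.59% and 4.12%), 8 with the DESeq2 block (beside 3.5%) and 4 with DESeq2 (beside 1.55%). Without the trend and robust options neither Nrp1 nor Sema3c was counted, and only Sema4a was, which was lower and had few reads. The number was then 1 (1.52%), a share below the 2.16% of all genes. It ran from 0 (without the library labelled Islr knockout 3, beside 0.448% of all genes) to 12 (without that labelled Islr knockout 1, beside 4.12%) when 1 library was left out. With the replicate block and 1 number left out it was 19, 15 and 3 of 66 without numbers 1, 2 and 3, beside 6.98%, 9.93% and 1.95% of all genes. For partner genes the count was 0, and 5 with the limma or edgeR replicate block, 4 with the DESeq2 block and 1 with edgeR or DESeq2. It ran from 0 to 7 when 1 library was left out and was 8, 12 and 4 with the block and number 1, 2 or 3 left out, beside the same shares of all genes.

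Between replicate numbers, 15 guidance genes passed the adjusted threshold with DESeq2 (22.7%), beside 2679 of all genes (13.2%). With a pseudocount of 0.1 it was 4 (6.06%), beside 566 (2.78%). A filter at a mean of at least 10 gave 4 of 62 (6.45%), beside 795 of 14280 (5.57%), so the shares lay close together. With no filter it was 17 of 68 (25%), beside 3309 of 27366 (12.1%). Without the trend and robust options both counts were 0. When 1 library was left out the counts ran from 291 to 2513 genes and from 1 to 12 guidance genes, with the shares given above. The number of guidance genes whose groups did not overlap ran from 4 to 23, since fewer libraries overlap less. For the alternatives the share over all genes was not counted, so the rise to 23 is no result about guidance genes. The median log2 fold change stayed between 0.07 and 0.37. Genes with few reads, such as Robo3, Epha5 and Sema5b, are limited by depth.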
